A study of Mytilus galloprovincialis with 12 samples.

Results

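The clones described here are those whose treated to vehicle ratio differed most between the 12 arrays of the series. Members were chosen on the deposited log2 ratios, averaged over the 2 spots of each clone. A clone was a member when its highest minus its lowest ratio over the 12 arrays was above 3.5 on the log2 scale. Of the 1816 clones with a deposited ratio, 64 met this rule, and the array carries 1920 clones in all. These 64 are called the wide clones. Because the ratios themselves chose the members, their ratios, ranges and channel levels are given as a description. Counts of members in fits across all clones are printed beside the share of all clones, and nothing is read from them.

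Each array compared the digestive gland RNA of treated female Mytilus galloprovincialis with that of vehicle animals on 1 dual colour cDNA array, with 4 arrays for each of 3 treatments. CHP mussels were kept with chlorpyrifos, an organophosphate insecticide, at 4.5 mg/L in the aquarium water. E2 mussels received 25 pmol of 17β-estradiol, the main vertebrate estrogen, by injection into the posterior adductor muscle. CHP/E2 mussels received chlorpyrifos at the same concentration and then the same injection. The labels give 4 days with chlorpyrifos for CHP and 3 days before the injection for CHP/E2, whereas the study's methods give the same length for both. Vehicle animals had 0.02% DMSO in the water and an injection of 50 μl of artificial sea water with 0.05% ethanol. Every RNA came from a pool of 6 animals, so a ratio holds no information on single mussels. Per the study's methods, E2 mussels had also been kept with the DMSO vehicle, all mussels were injected, and glands were taken the day after the injection. The labels do not tie a pool to a tank.

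The digestive gland is the main organ of digestion in bivalves, with digestive and secretory cells that take up food particles, and it also stores lipids and handles xenobiotics. Its cell make-up changes with feeding and season. A cDNA array carries cloned transcript fragments, and several clones may come from 1 abundant transcript. Each clone is hybridized with both RNAs at once, labelled with Cy5 and Cy3, so that a ratio moves when either RNA changes. In pooled tissue, fewer cells of a type and less RNA per cell cannot be told apart.

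The files name clones only by their plate and well, and 0 of the 1920 clone names were found in the RefSeq gene table of the species. No gene name, sequence or function is therefore attached to a clone, and the labelled tissue could not be checked against markers. Over the 12 arrays, the median signal of a clone spot was 1.48 to 3.29 times its local background for treated RNA and 1.15 to 3.92 times for vehicle RNA. A spot counted as above background when its signal was more than 2 background SDs over the local background, which either channel reached for 62.9% to 85.7% of clone spots. No spot mean reached the limit of the scanner, and single pixels were not examined for saturation. Treated RNA was labelled with Cy3 on 3 arrays, replicate 3 of CHP and replicate 4 of both E2 and CHP/E2, and with Cy5 on the other 9.

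The ranges ran without a break across the threshold. The wide clones had ranges of 3.51 to 9.18, with a median of 5.49, and the other 1752 clones had a median of 0.89. A range above 5 was found for 41 clones and a range above 8 for 6. The last members inside the threshold were Myt01-011H08 at 3.51 and Myt01-016H12, whose range of 3.505 came from 1.52 on CHP replicate 3 and -1.99 on CHP/E2 replicate 3. Just outside were Myt01-005F01, at 3.48 with 2.40 on CHP replicate 4 and -1.08 on CHP/E2 replicate 2, and Myt01-003D11 at 3.45, which was lowest on CHP replicate 2 (-2.61).

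**Figure D1:**
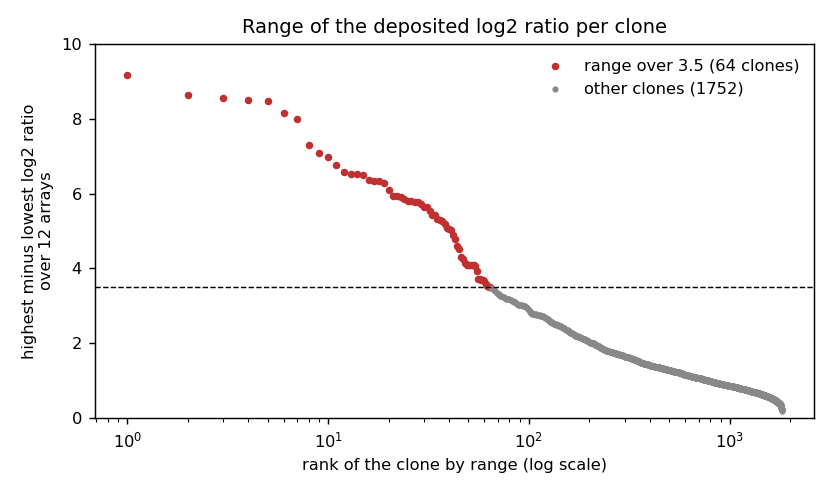
Highest minus lowest deposited log2 ratio over 12 arrays (vertical axis) of each of the 1816 clones, against its rank on a log axis, with the threshold of 3.5 dashed. The 64 wide clones reach 9.18, and the curve passes the threshold without a gap.

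The wide clones were 3.52% of the clones and held 49.5% of all squared deviations of the ratios from the clones' means. On single arrays this share lay between 11.3% (E2 replicate 4) and 66.7% (CHP replicate 3). CHP replicates 3 and 4 carried the highest ratio of 27 and 25 wide clones, and CHP/E2 replicate 2 carried the lowest ratio of 40. On CHP replicate 3 the median size of the ratio, regardless of sign, was 3.35 in the wide clones and 0.26 in the other clones. On E2 replicate 3 it was 0.12 in the wide clones and 0.17 in the other clones, so that most wide clones lay near 0 there. Within a treatment, the SD of a wide clone over the 4 arrays had a median of 1.97 for CHP, where it was 0.25 in the other clones. The median was 0.79 in the wide clones and 0.21 in the other clones for E2, and 1.73 in the wide clones and 0.23 in the other clones for CHP/E2.

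The correlations between arrays differed with and without these clones. Over all 1816 clones, 10 of the 66 pairs of arrays had a correlation under -0.3, the lowest being -0.54 for CHP replicate 4 and CHP/E2 replicate 2, both with treated RNA in Cy5. Over the other 1752 clones, 0 of 66 pairs were under -0.3, and the lowest was -0.17. CHP replicate 4 and CHP/E2 replicate 2 had -0.08 over these clones. The wide clones were chosen for ratios far apart between arrays, so leaving them out was bound to weaken such negative correlations. Nothing is therefore read from this difference. The labels state the dyes of every array, so the direction of the ratios was kept as treated over vehicle.

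**Figure D2:**
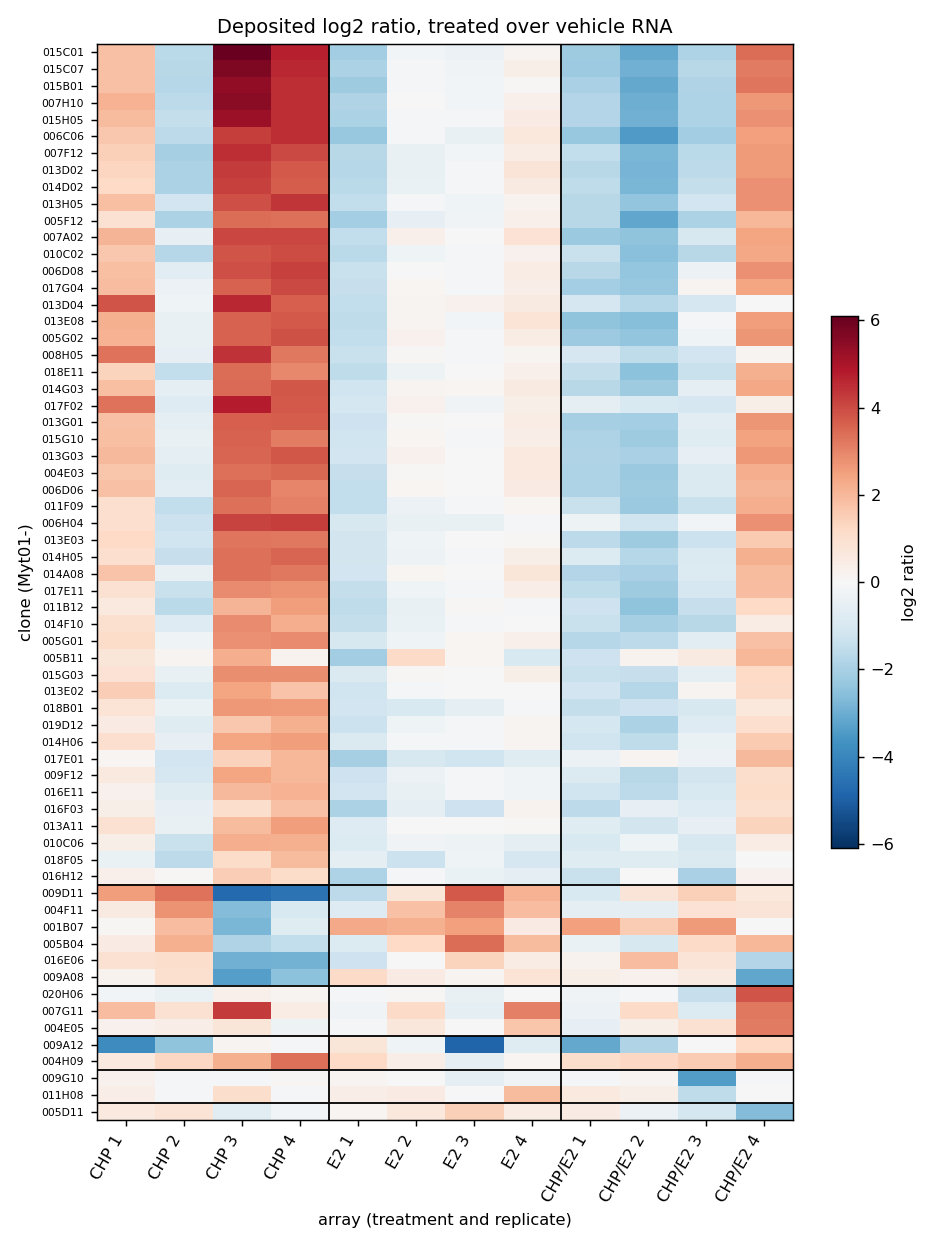
Deposited log2 ratio of treated over vehicle RNA of the 64 wide clones (rows, horizontal lines between co-varying groups, largest range first within each group) on the 12 arrays (columns, vertical lines between treatments). The upper 50 rows share 1 pattern, high on CHP replicates 3 and 4 and CHP/E2 replicate 4 and mostly low on CHP/E2 replicates 1 to 3.

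Grouping the wide clones by the correlation of their ratios (average linkage on 1 minus r, with a limit of 0.5) gave 1 large group of 50 clones. The others formed a group of 6, a group of 3, 2 pairs and 1 single clone. Groups are called by their clone of largest range. All pairs of wide clones had a median correlation of 0.86 over the 12 arrays, the pairs inside the large group one of 0.97, and the pairs of other clones one near 0 (-0.00). Clones on 1 array share its hybridization and its vehicle RNA, so these correlations are not over independent measurements.

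The group of 50, led by Myt01-015C01, had mean log2 ratios of 1.40, -0.97, 3.39 and 3.21 on CHP replicates 1 to 4. On E2 replicates 1 to 4 the means were -1.45, -0.15, -0.15 and 0.21. On CHP/E2 replicates 1 to 4 they were -1.50, -1.96, -1.0 and 1.88. Within each treatment the replicates thus lay on both sides of 0, with E2 only through 0.21 on replicate 4, and the 3 treatments overlapped. On most arrays the direction was nearly uniform over the clones, which were grouped by these same ratios. All 50 were above 0 on CHP replicates 3 and 4 and on CHP/E2 replicate 4, and all 50 were below 0 on E2 replicate 1 and CHP/E2 replicate 1. The clones were split on E2 replicate 2 (16 above and 33 below 0), E2 replicate 3 (9 and 39) and E2 replicate 4 (39 and 11). Averaged by treatment, the ratio of the group was 1.75 ± 2.03 for the CHP arrays, -0.38 ± 0.73 for the E2 arrays and -0.64 ± 1.73 for the CHP/E2 arrays (SD over 4 arrays).

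Both channels moved. The mean treated level of these 50 clones was 10.21, 8.62, 10.94 and 10.69 on CHP replicates 1 to 4, on the log2 scale of the normalized intensity. The vehicle level on the same arrays was 8.93, 9.34, 7.70 and 7.89. With E2 the treated levels were 8.91, 9.18, 9.20 and 9.58, and the vehicle levels were 10.18, 9.26, 9.31 and 9.37. With CHP/E2 the treated levels were 8.86, 8.59, 9.05 and 9.84, and the vehicle levels were 10.16, 10.24, 9.87 and 8.06. The treated level was thus highest on CHP replicate 3 and lowest on CHP/E2 replicate 2, a span of 2.35. The vehicle level had its extremes on the same arrays, reversed, and spanned 2.54, which is 5.82-fold. These extremes lay on different slides and in different dyes.

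Over the 12 arrays the treated and vehicle levels of the group ran against each other (Pearson's r -0.89, Spearman's rho -0.87). The treated level followed the ratio with an r of 0.97 and the vehicle level with an r of -0.97. The ratio is the difference of the 2 levels, and the clones were chosen for a wide ratio, so that all 3 correlations are largely set by that choice. In the wide clones the median SD over the 12 arrays was 0.85 for the treated level and 0.98 for the vehicle level. In the other clones it was 0.31 for the treated level and 0.29 for the vehicle level. The mean of both levels had a median SD of 0.48 in the wide clones and 0.28 in the other clones.

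**Figure D3:**
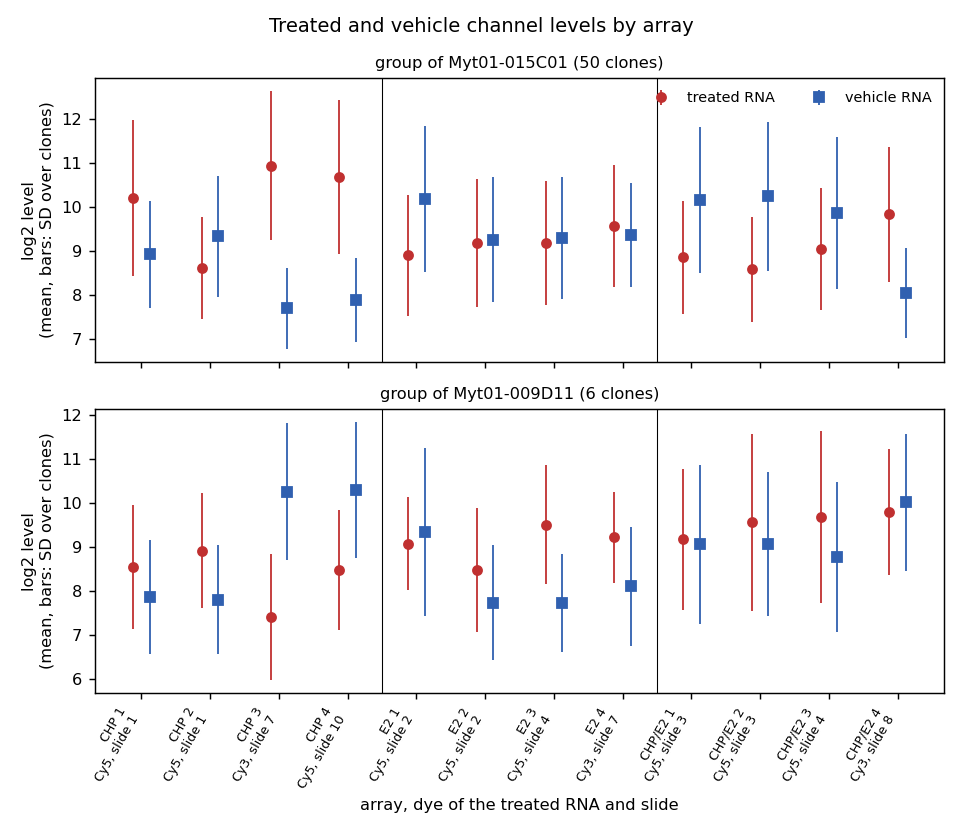
Normalized log2 level of treated RNA (circles) and vehicle RNA (squares) by array, as means over the 50 clones of the group of Myt01-015C01 (top) and the 6 clones of the group of Myt01-009D11 (bottom), with bars of 1 SD over clones and the dye of the treated RNA and the slide below each array. On CHP replicate 3 the large group stood at 10.94 in treated RNA and 7.70 in vehicle RNA, and the group of 6 at 7.42 in treated RNA and 10.25 in vehicle RNA.

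Myt01-015C01 had the widest range of all, 9.18. Its log2 ratios were 1.79, -1.66, 6.03 and 4.75 on CHP replicates 1 to 4, -2.11, -0.16, -0.34 and 0.18 on those of E2, and -2.19, -3.15, -1.87 and 3.41 on those of CHP/E2. The treated signal was thus 65.3-fold above the vehicle signal on CHP replicate 3 and 8.85-fold below it on CHP/E2 replicate 2. Before normalization, the intensity above background on CHP replicate 3 was 14446 for treated RNA and 585 for vehicle RNA. On CHP/E2 replicate 2 it was 364 for treated RNA and 3503 for vehicle RNA. Both channels exceeded background on all 12 arrays.

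Of the 8 clones of largest range, 7 belonged to this group and shared its extremes. Myt01-015C07 (range 8.64) had 5.70 on CHP replicate 3 and -2.94 on CHP/E2 replicate 2. Myt01-015B01 (range 8.56) had 5.42 and -3.14 on these arrays, and Myt01-007H10 (range 8.48) had 5.52 and -2.96. For Myt01-006C06 (range 7.98) the ratio was highest on CHP replicate 4 instead, at 4.53, and lowest on CHP/E2 replicate 2, at -3.46. Myt01-007F12 (range 7.29) had 4.49 on CHP replicate 3 and -2.80 on CHP/E2 replicate 2.

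Myt01-015H05 (range 8.14) was nearest to the mean profile of the group. Its ratios were 1.92, -1.46, 5.22 and 4.50 with CHP, -1.94, -0.08, -0.08 and 0.52 with E2, and -1.80, -2.92, -1.88 and 2.81 with CHP/E2. Its treated level was 12.90, 9.52, 13.50 and 12.70 on the CHP arrays, and its vehicle level was 10.87, 10.82, 8.31 and 8.28. On CHP replicates 1 and 2, which lay on 1 slide, the vehicle levels of this clone were alike while the treated levels differed by more than 3 on the log2 scale.

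The correlation with the mean of the group was above 0.9 for 44 of the 50 members and above 0.95 for 41. Many profiles were close to identical: 188 pairs, among 37 clones, had an r above 0.99. The closest were Myt01-007A02 and Myt01-014A08, with an r of 0.9996, which stood on different plates.

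A stricter limit of 0.02, chosen after the profiles were seen, split off 3 sets of 22, 15 and 3 clones. The set of 22, led by Myt01-015C01, had means of -1.45 on CHP replicate 2 and -1.43 on CHP/E2 replicate 3. The set of 15, led by Myt01-007A02, had -0.50 and -0.55 on these arrays. On the other 10 arrays the means of these sets were at most 0.45 apart in log2 ratio, for example 3.75 and 3.42 on CHP replicate 3. The set of 15 therefore differed mainly in lying closer to 0 on 2 arrays.

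The set of 3 (Myt01-013D04, Myt01-008H05 and Myt01-017F02) had a profile of its own. Its mean ratios were 3.49, -0.51, 4.58 and 3.54 with CHP, -1.31, 0.17, -0.04 and 0.35 with E2, and -0.88, -1.41, -1.07 and 0.19 with CHP/E2. It was thus higher than the large group on CHP replicate 1 and, unlike the large group, close to 0 on CHP/E2 replicate 4. Here the treated RNA carried most of the movement. The treated level was 12.32, 9.24, 13.20 and 12.22 on the CHP arrays, whereas the vehicle level was 9.03, 9.66, 8.73 and 8.83. Over all 12 arrays the treated level of the set spanned 4.83 and the vehicle level 1.12.

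The other 10 clones of the large group followed it less closely. Their correlation with its mean went down to 0.62 for Myt01-005B11, and was 0.79 for Myt01-016H12, one of the clones just inside the threshold. Myt01-016H12 had 0.32, 0.06, 1.52 and 1.14 with CHP, -1.88, -0.06, -0.39 and -0.54 with E2, and -1.37, -0.05, -1.99 and 0.29 with CHP/E2.

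The group of 6 was made up of Myt01-009D11, Myt01-004F11, Myt01-001B07, Myt01-005B04, Myt01-009A08 and the clone in row E, column 6 of plate 16. They came from 5 plates and were printed in 5 blocks, and their ratios correlated with a median of 0.63, less closely than those of the large group. Its mean ratios were 0.81, 2.03, -3.05 and -2.19 on CHP replicates 1 to 4, -0.17, 1.07, 2.36 and 1.28 on those of E2, and 0.20, 0.50, 1.24 and -0.25 on those of CHP/E2. On CHP replicates 3 and 4, where the 50 clones were highest, all 6 were below 0. The vehicle level of the group was 10.25 and 10.28 on these arrays and 10.01 on CHP/E2 replicate 4, and lay between 7.73 and 9.34 on the other 9. The treated level was 7.42 on CHP replicate 3 and 8.47 to 9.79 on the other 11 arrays. The mean ratios of the groups of 50 and 6 had a Pearson's r of -0.69 and a Spearman's rho of -0.37 over the 12 arrays, so the opposition was weaker by rank.

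Myt01-009D11, with a range of 8.49, was the clone nearest to the mean of the group of 6. Its ratios were 2.54, 3.31, -4.76 and -4.52 with CHP, -1.59, 0.72, 3.74 and 2.11 with E2, and -0.91, 0.80, 1.48 and 0.66 with CHP/E2. Its treated intensity above background was 57 and 46.5 on CHP replicates 3 and 4, against 4424 and 1156 for vehicle RNA. On CHP replicates 1 and 2 it was 422 and 96 for treated RNA, against 57 and 6.5 for vehicle RNA. Treated RNA exceeded background on 10 arrays and vehicle RNA on 9, so several of these ratios set a bright channel against a channel near background. Myt01-001B07 had the lowest correlation with the mean of the large group, -0.89. Its ratios were 0.08, 1.88, -2.81 and -0.76 with CHP, 2.31, 2.18, 2.48 and 0.49 with E2, and 2.51, 1.54, 2.61 and 0.00 with CHP/E2. The group was thus not uniform: on the E2 and CHP/E2 arrays Myt01-001B07 was at or above 0 throughout, while Myt01-004F11 was below 0 on E2 replicate 1 (-0.79) and on CHP/E2 replicates 1 and 2 (-0.54 on both). On CHP/E2 replicate 4, Myt01-005B04 had 2.04 and Myt01-009A08 had -3.16.

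The group of 3 held Myt01-020H06, Myt01-007G11 and the clone in row E, column 5 of plate 4. Their mean ratio was 3.42 on CHP/E2 replicate 4 and lay between -0.43 and 1.78 on the other 11 arrays. Myt01-007G11 had 1.89, 0.94, 4.26 and 0.44 with CHP, -0.20, 1.17, -0.61 and 3.07 with E2, and -0.38, 1.17, -0.82 and 3.23 with CHP/E2. Its 3 highest ratios were those of the 3 arrays with treated RNA in Cy3. Myt01-020H06 was a member through a single spot. On CHP/E2 replicate 4 its spots gave 7.62 and 0.10, with treated intensities above background of 1131 and 14, and the brighter spot had an SD of 6144 over its pixels. On the other 11 arrays its ratio was between -1.41 and 0.32, and over all arrays its treated RNA exceeded background on 1 and its vehicle RNA on 0.

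The pairs and the single clone each had their own arrays. Myt01-009A12 had -3.85, -2.46, 0.16 and -0.14 with CHP, 0.73, -0.25, -4.89 and -0.72 with E2, and -3.15, -1.84, 0.03 and 1.20 with CHP/E2. It was lowest on E2 replicate 3, an array on which most of the large group lay near 0. Its partner Myt01-004H09 had 0.62, 1.26, 2.19 and 3.36 with CHP, 1.21, 0.41, -0.58 and 0.13 with E2, and 1.08, 1.26, 1.55 and 2.24 with CHP/E2. It was below 0 only on E2 replicate 3. Myt01-009G10 was between -0.61 and 0.28 on all arrays except CHP/E2 replicate 3, where it had -3.41. There its intensity above background was 97 for treated RNA and 508 for vehicle RNA, and on the other arrays both were 36.5 or less. Its partner Myt01-011H08 had its lowest ratio on the same array (-1.57) and its highest on E2 replicate 4 (1.95). For Myt01-011H08 the 2 RNAs of an array mostly moved together, with levels of 12.59 for treated RNA and 12.09 for vehicle RNA on CHP replicate 1, and of 7.53 for treated RNA and 7.51 for vehicle RNA on CHP/E2 replicate 4. Myt01-005D11 lay between -1.08 and 1.43 on 11 arrays and had -2.67 on CHP/E2 replicate 4.

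**Figure D4:**
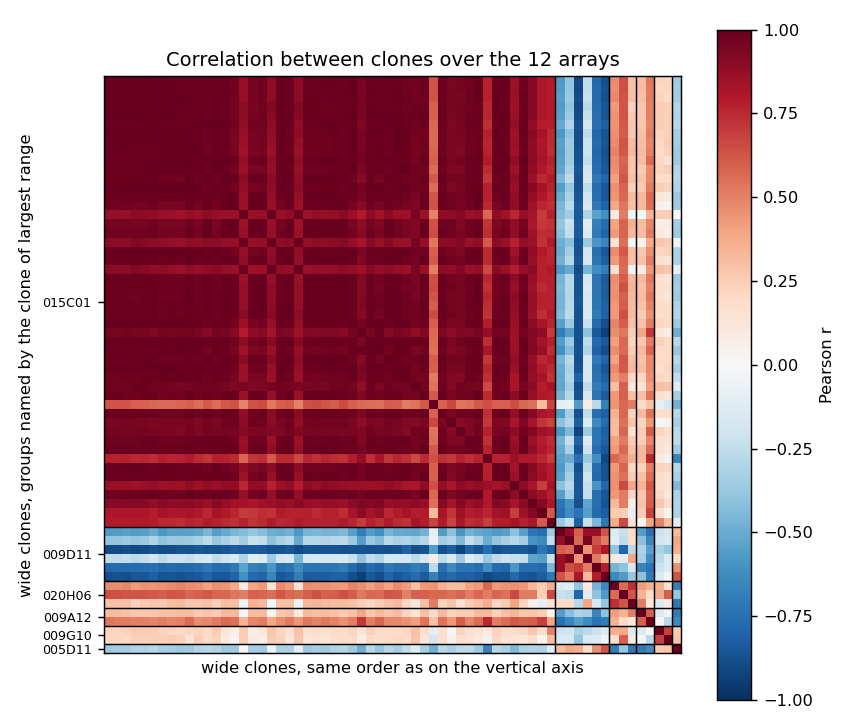
Pearson's r between the deposited ratios of each pair of the 64 wide clones over 12 arrays, with lines between groups, which are named by their clone of largest range. The 50 clones at the top left are positively correlated with each other (median 0.97), and the 6 clones of the group of Myt01-009D11 are mostly negatively correlated with them.

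The pattern of the large group went on below the threshold. Of the 1752 other clones, 43 (2.45%) had a correlation above 0.9 with its mean, with ranges of 0.87 to 3.48 and a median range of 2.44. A correlation under -0.9 was found for 2, Myt01-017C04 (-0.94) and Myt01-013F11 (-0.90), named after their values were seen. The 3 closest were Myt01-018B10 (r 0.994, range 3.31), Myt01-015G12 (r 0.992, range 3.14) and Myt01-012E02 (r 0.992, range 3.17). Myt01-018B10 had 0.85, -0.34, 2.31 and 2.32 with CHP, -0.95, -0.03, -0.05 and 0.30 with E2, and -0.98, -0.94, -0.57 and 1.51 with CHP/E2. It was thus high and low on the same arrays as the large group, over a smaller range. Myt01-005F01, just outside the threshold, had an r of 0.98.

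Dye and slide were set against these ratios next. Within each treatment, the mean ratio of the wide clones was higher on the array with treated RNA in Cy3 than on each of the 3 arrays with treated RNA in Cy5. It was 2.48 against -0.57 to 2.36 with CHP, 0.39 against -1.11 to 0.04 with E2, and 1.61 against -1.47 to -0.75 with CHP/E2. This mean was carried by the large group. The mean of the group of 6 was -3.05 on the Cy3 array of CHP, against -2.19 to 2.03 on the Cy5 arrays, and -0.25 on that of CHP/E2, against 0.20 to 1.24, so it was lower than on each Cy5 array in both. With E2 it was 1.28 on the Cy3 array, against -0.17 to 2.36. The mean over the other clones says nothing here, since the normalization of each array holds it near 0. Fitted beside the treatments with limma, the dye coefficient (Cy3 minus Cy5) had a median of 1.58 in the wide clones and -0.02 in the other clones. The wide clones were chosen on ratios of these arrays, and most of them share the profile of the large group. Nothing is therefore read from this difference. For the dye, 2 of the 64 wide clones had B, the log odds of a difference, above 0, where 2.86% of all clones did. These were Myt01-007G11, at 2.70, and Myt01-001B07, at -1.98. At an adjusted p under 0.05 it was 5 of 64 (7.87% of all clones). The other 3, named after their values were seen, were Myt01-006D06, at 2.22, Myt01-018B01, at 1.10, and the clone in row E, column 5 of plate 4, at 1.39. At an unadjusted p under 0.05 it was 49 of 64 (28.7% of all clones), from which nothing is read.

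The Cy3 arrays lay on slides 7 and 8, which held no array with treated RNA in Cy5, so dye and slide cannot be told apart. CHP replicate 4, alone on slide 10 with treated RNA in Cy5, had a mean ratio of 3.21 in the large group, close to the 3.39 of CHP replicate 3 on slide 7 with treated RNA in Cy3. The 2 arrays of slide 7, both with treated RNA in Cy3, had means of 3.39 for CHP replicate 3 and 0.21 for E2 replicate 4. On slide 1, with treated RNA in Cy5, CHP replicates 1 and 2 were 2.37 apart. On slide 2, E2 replicates 1 and 2 were 1.31 apart, and on slide 3, CHP/E2 replicates 1 and 2 were 0.46 apart. Arrays of 1 slide and 1 dye thus differed by up to 3.17 in the large group, on slide 7, where the treatments differed as well. Within a treatment they differed by up to 2.37. Clone by clone, over the 5 slides with 2 arrays, the median absolute difference between the arrays of a slide was 0.66 to 3.08 in the wide clones and 0.18 to 0.26 in the other clones. On slides 1, 2 and 3, whose arrays shared a treatment, it was 0.66 to 2.26 in the wide clones and 0.18 to 0.23 in the other clones.

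**Figure D5:**
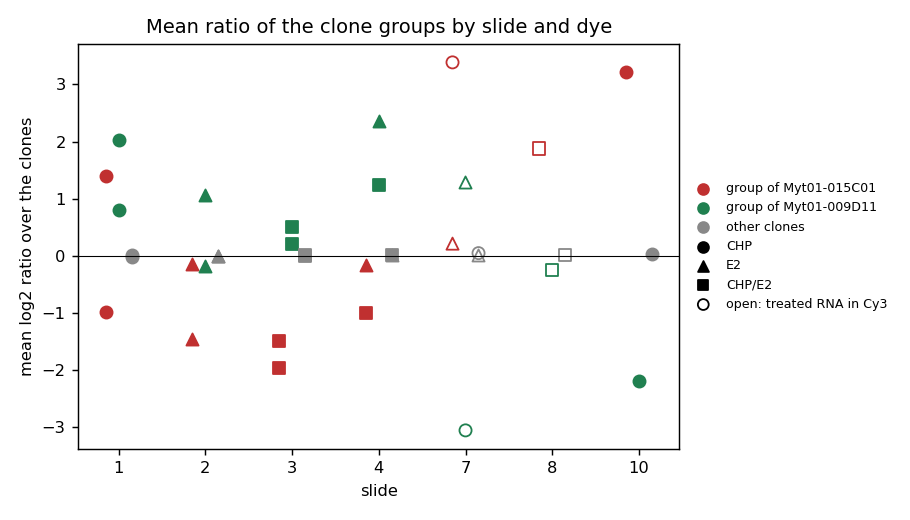
Mean deposited log2 ratio over the 50 clones of the group of Myt01-015C01 (left), the 6 clones of the group of Myt01-009D11 (middle) and the other 1752 clones (right) for each array, placed by slide, with the treatment as the shape and open symbols for treated RNA in Cy3. The large group reaches 3.39 on slide 7 and 3.21 on slide 10, while the mean of the other clones is held near 0 on every slide by the normalization.

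The names of the scans give pool numbers for some arrays, which allows the level of 1 numbered pool to be set side by side on several arrays. The vehicle pool numbered 1 had mean levels in the large group of 10.18 on E2 replicate 1 and 10.16 on CHP/E2 replicate 1. The one numbered 2 had 8.93 on CHP replicate 1, 9.26 on E2 replicate 2 and 10.24 on CHP/E2 replicate 2. The one numbered 3 had 9.34 on CHP replicate 2, 7.89 on CHP replicate 4, 9.31 on E2 replicate 3 and 9.87 on CHP/E2 replicate 3. The same number was thus found with nearly equal and with clearly different levels of these clones.

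For treated RNA, the scan names repeat a number in 2 cases, although the labels call these arrays separate replicates. The E2 pool numbered 2 had 9.18 on E2 replicate 2 and 9.58 on E2 replicate 4. The CHP/E2 pool numbered 3 had 9.05 on CHP/E2 replicate 3 and 9.84 on CHP/E2 replicate 4. Pool, dye, slide and hybridization cannot be told apart in these arrays. For the 3 arrays with treated RNA in Cy3, the scan names give no number for the vehicle pool.

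The treatments were fitted across all clones with limma, on ratios recomputed from the scanner intensities. Since the members were chosen on ratios of the same arrays, nothing is read from their counts. At B above 0, the threshold of the study, 0 of the 64 wide clones passed for CHP, where 2.15% of all 1816 clones passed. For E2, 0 of 64 passed, and 0.441% of all clones. For CHP/E2, 0 of 64 passed, and 0.771% of all clones. Among all clones the present fit thus called 39 with CHP, 8 with E2 and 14 with the combination. At the same threshold the study reported more differentially expressed genes with each treatment. The counts and shares given here therefore belong to the present fit and not to that of the study. At an unadjusted p under 0.05 the counts of wide clones were 36 for CHP (21.8% of all clones), 1 for E2 (8.37%) and 1 for CHP/E2 (12.7%). The single clones were Myt01-001B07 for E2, at a fitted log2 ratio of 1.5, and Myt01-004H09 for CHP/E2, at 1.14. The median residual SD of the fit was 1.38 in the wide clones and 0.19 in the other clones.

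With Benjamini-Hochberg adjustment, 4 of 64 wide clones passed for CHP at an adjusted p under 0.05 (3.91% of all clones), 0 of 64 for E2 (0.165%) and 0 of 64 for CHP/E2 (0.33%). These 4, named here after their values were seen, were Myt01-004H09 and the set of 3 clones with Myt01-013D04. The fitted log2 ratio with CHP was 1.56 for Myt01-004H09 and 2.91 for Myt01-013D04, given as a description because the same arrays chose these clones. The count for CHP moved with each array left out. It was 1 of 64 without CHP replicate 1 (2.37% of all clones), 37 of 64 without CHP replicate 2 (9.69%), 0 of 64 without CHP replicate 3 (1.21%) and 0 of 64 without CHP replicate 4 (1.43%). Of the 64 wide clones, 60 had ratios on both sides of 0 among the 4 CHP arrays, 51 among the E2 arrays and 62 among the CHP/E2 arrays. A clone without any effect would also often have both signs over 4 arrays. The share over all clones was not counted, so nothing is read from these counts.

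The wide clones came from 17 of the 20 source plates, with none on plates 2, 3 and 12. Plates 13 to 15 held 21 of the 64, all of the large group, among their 281 clones, and plates 1 to 3 held 1 among 275. Over all plates 3.52% of the clones were wide. The choice of these plates was not set in advance, so nothing is read from the contrast. All 16 printed blocks held at least 1 wide clone. Between duplicate spots, the ratio of a wide clone differed by a median of 0.07, against 0.11 in the other clones. The correlation between the spots over the 12 arrays had a median of 0.997 in the wide clones and 0.74 in the other clones. A wide range of the mean of both spots, which chose the members, raises this correlation, so nothing is read from the difference. Among wide clones the correlation was lowest for Myt01-020H06 (0.29). Of 768 pairs of spots, 7 were more than 1 apart on the log2 scale, 2 of them from Myt01-020H06.

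Treated RNA exceeded background on all 12 arrays for 48 of the 64 and vehicle RNA for 38, and for 37 both did. At least 1 channel exceeded background on 6 or more arrays for 62 of the 64 wide clones and for 1392 of the 1752 other clones. On single arrays, 55 to 63 of the 64 were above background in treated RNA and 50 to 61 in vehicle RNA. The lowest number for vehicle RNA was found on CHP replicate 4, where the vehicle level of the large group was 7.89. The number did not follow this level: it was 57 on CHP replicate 3, at a level of 7.70, and 51 on CHP replicate 2, at 9.34.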

How the data were processed

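Digestive gland RNA was measured on 12 dual colour cDNA arrays, 4 each for CHP, E2 and CHP/E2, each against vehicle RNA. Per the file headers, the authors' scanner files hold spot intensities (mean of the spot and median and SD of its local background) with no correction. The deposited table holds the authors' normalized log2 ratios with 2 decimals. Their method beyond limma is not given in the sources used here, nor is its version.

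The deposited ratios were averaged over the 2 spots of a clone and chose the members (range above 3.5). The 104 clones without a deposited ratio were not used as members. Among them, 5 had a recomputed range above 3.5. The members and lists were chosen with earlier results of these data known. Named clones are the 8 of largest range, the clone nearest the mean of each group of 3 or more, the clone correlating least with the largest group, the 2 on either side of the threshold and the 3 outside clones closest to the largest group.

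Background was corrected by normexp with an offset of 50. Loess normalization followed within each array, giving no weight to 720 spots without a clone, and the sign of the arrays with treated RNA in Cy3 was turned. Channel levels were taken after Aquantile normalization. Ratios recomputed in this way correlated with the deposited ones at 0.88 to 0.98 over the clones of an array. The 1816 clones with a deposited ratio were fitted with lmFit and eBayes (two-sided, prior proportion 0.01), with calls at B above 0 and a Benjamini-Hochberg adjusted p under 0.05. The same fit was afterwards run on simulated data drawn with its residual SDs. E2 replicates 2 and 4, and CHP/E2 replicates 3 and 4, were counted as separate arrays in the fit and the SDs. The scan names repeat a treated pool number for each of these pairs. The p-values measure only the spread between arrays, part of which may be technical. R 4.3.3, limma 3.58.1, statmod 1.5.0, Python 3.11.15 and scipy 1.17.1 were used. Alternatives concerned the threshold, spots, background, normalization, dye, slide, replicate number, pool numbers and single arrays. The number of arrays limits the precision.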

Additional observations from a re-analysis of the deposited data

Results flagged for a closer look

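In 96 sets of 4 arrays (means, levels and named clones by treatment), 9 had 1 array far from the other 3, where chance gives about 1 in 20. The sets share arrays and clones, and most of these clones were chosen for extreme ratios on the same arrays, so nothing is read from the number of such sets. On E2 replicate 1 the vehicle level was 9.84 over the wide clones, against 8.97, 9.0 and 9.01 on the other E2 arrays, and 10.18 over the large group, against 9.26, 9.31 and 9.37. On the same array the ratio was -2.17 for Myt01-015B01 (-0.17, -0.09 and 0.09 on the others), -1.07 for Myt01-015G12 (-0.14, -0.09 and -0.07) and 0.31 for Myt01-003D11 (-0.20, -0.16 and -0.14). On CHP/E2 replicate 4 the vehicle level over the wide clones was 8.10, against 9.59, 9.79 and 9.87, and the ratio was 1.51 for Myt01-018B10 (-0.98, -0.94 and -0.57) and 1.27 for Myt01-012E02 (-0.91, -0.77 and -0.57). On E2 replicate 4 the ratio of Myt01-001B07 was 0.49, against 2.18, 2.31 and 2.48. E2 replicate 1 was the only E2 array whose scan name gives the vehicle pool number 1, and CHP/E2 replicate 4 the only CHP/E2 array with treated RNA in Cy3. The part of either was not tested.

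Myt01-016H12 had ratios above 0 on all 4 CHP arrays (mean 0.76) and below 0 on all 4 E2 arrays (mean -0.71), and this difference was not tested. It was flagged from a search over group means, named clones and pairs of treatments. The share of all clones with such a split was not counted, so nothing is read from it.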

How the results depend on the processing

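Settings other than leaving out 1 array changed 8 of 67 values beyond the limits used (1.5 times for a count, 1 SD for a mean). The mean ratio of the wide clones kept its sign for each treatment in these settings. The number of wide clones was 64, and 35 without CHP replicates 3 and 4 and CHP/E2 replicate 4, chosen after seeing the data. All 35 were among the 64. Recomputed ratios gave 47, all among the 64. The count of wide clones passing B above 0 for CHP, 0 in the text, was 1 with plain subtraction, 4 with median centring, 1 with deposited ratios and 1 with slide as a random block, and with the dye as a term 1 passed for E2 and 1 for CHP/E2. The median SD of the treated level was 1.40 without normalization between arrays. Of all clones, the fits of these settings called 17 to 43 for CHP, while for E2 they called 6 to 17, and for CHP/E2 5 to 21.

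Leaving out 1 array at a time gave 60 to 64 wide clones and 0 to 3 of them called for CHP (3 without CHP replicate 2), and 0 for either of the treatments with E2. Over all clones these fits called 22 to 52 for CHP, 4 to 11 where E2 was given alone and 8 to 14 where it followed CHP. The mean ratio of the wide clones was 1.36 for CHP (0.99 to 2.00), -0.17 for E2 (-0.36 to 0.14, above 0 without E2 replicate 1) and -0.45 for CHP/E2 (-1.13 to -0.11). The median SD was 0.80 to 0.89 for treated levels and 0.91 to 1.02 for vehicle levels, and the median correlation 0.81 to 0.87.

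With the replicate number as a block, 0 wide clones had B above 0 for CHP, and likewise 0 for E2 and 0 for its combination with CHP. Of 12 same-numbered pairs of arrays, 6 had deviations correlating above 0.1 (-0.45 to 0.60). These values lie on both sides of 0 and cannot decide whether the numbers pair the samples. By the scan names, each E2 array numbered 1, 2 or 3 had the same vehicle pool number as its CHP/E2 counterpart. The CHP arrays numbered 1 and 2 had vehicle pool numbers 2 and 3 instead. The vehicle pool was not fitted as a block. Vehicle signals only 1.15 to 3.92 times background limit the precision of low levels.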
